A study of Homo sapiens with 12 samples.

Results

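DDIT4, TRIB3 and EIF4EBP1, 3 genes whose products restrain the mTORC1 pathway, were followed among the 6777 genes analysed in MDA-MB-231 cells. The set was chosen by the strong RNA rise of DDIT4 and TRIB3 in these same libraries, so the RNA values below describe the genes and were not tested. MDA-MB-231 is an established human cell line from a breast cancer without hormone receptors or amplified ERBB2 (triple-negative). One group of cultures received 10 nM AZD0095, an inhibitor of the lactate exporter MCT4, for 4 h, and the control group received the solvent DMSO for the same time. Both groups were grown in the same serum-containing medium. RNA-seq and ribosome profiling, which sequences the mRNA fragments covered by ribosomes (footprints), were each carried out on 3 DMSO and 3 AZD0095 libraries, 12 libraries in 4 groups. The labels name both total RNA and polyadenylated RNA for the RNA libraries, so which RNA the FPKM and the ratios rest on is not settled. Whether replicates came from separate cultures is not stated, so each p-value reflects only how much these libraries vary, and part of that variation may be technical.

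mTORC1 is a protein kinase complex that promotes protein synthesis and cell growth when nutrients, energy and growth factors are sufficient. DDIT4, also called REDD1, is induced by hypoxia, energy shortage and the integrated stress response and restrains mTORC1 through the TSC1 and TSC2 complex. TRIB3 is a pseudokinase induced by ATF4 and its partner DDIT3 that has been described to bind and restrain AKT, which acts upstream of mTORC1. EIF4EBP1 encodes 4E-BP1, which binds the cap-binding protein EIF4E and blocks cap-dependent initiation until mTORC1 phosphorylates it, and the gene is itself a known ATF4 target. The activity of 4E-BP1 depends on its phosphorylation, which neither assay measures.

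On the GRCh38.p14 assembly, the same build as the hg38 named for these data, the protein-coding gene DDIT4 (ENSG00000168209) spans 72273924 to 72276036 on chromosome 10. TRIB3 (ENSG00000101255), also protein-coding, spans 380760 to 397559 on chromosome 20. The place of EIF4EBP1 is given with its RNA values. A RefSeq table of promoter windows matched 2 of the 3 genes, DDIT4 with 1 window and TRIB3 with 3. The 250 bases before the DDIT4 start, chr10:72273674-72273923 on the plus strand of GRCh38.p14, are shown because DDIT4 had the largest RNA change and is a classical hypoxia and stress response gene. Capitals mark the matches to the motifs searched.
DDIT4: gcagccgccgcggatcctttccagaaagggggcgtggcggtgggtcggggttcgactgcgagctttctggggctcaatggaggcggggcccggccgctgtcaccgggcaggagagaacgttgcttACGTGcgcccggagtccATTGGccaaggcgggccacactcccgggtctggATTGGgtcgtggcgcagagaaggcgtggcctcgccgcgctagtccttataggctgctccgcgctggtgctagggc

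The search covered both strands of 35116 RefSeq windows. ACGTG, the core of the hypoxia response element, was found once in the DDIT4 window, 125 to 121 bases before the start, and occurred in 18.51% of all windows. The CCAAT box was found there 2 times, as ATTGG at 108 to 104 and at 75 to 71 bases before the start, and occurred in 32.01% of all windows. The composite element of ATF4 and C/EBP proteins, TGATGNAA, had no match in the windows of DDIT4 or TRIB3 and occurred in 3.144% of all windows. The cyclic AMP response element core TGACG, present in 21.22% of all windows, also had no match in either gene. GGGCGG, the GC box, had no match in DDIT4 and 2 in a TRIB3 window, against 42.64% of all windows with at least 1. The matches in the DDIT4 window do not overlap each other. Among the 5656 listed genes with a window the shares were 31.2% for ACGTG, 42.5% for the CCAAT box, 2.1% for TGATGNAA, 38.7% for TGACG and 77.4% for the GC box. A match is a description of sequence, and binding was not measured.

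The values analysed are FPKM, fragment counts scaled by gene length and by library depth, as the authors deposited them. Libraries of a group correlated with each other across genes at a mean r of 0.99 to 0.996 for RNA and 0.859 to 0.902 for footprints. Low footprint values fell on shared steps from which 107087 to 501350 counted reads per library were inferred, and the AZD0095 footprint libraries held on average 2.03 times the reads of the DMSO ones, or 1.27 times without AZD0095 replicate 3, the deepest; the 2 groups overlapped in depth. RNA depth could not be recovered. Of 10 markers of mesenchymal breast cancer lines 9 were listed, VIM among them, with a summed RNA level of 5250 to 5388 FPKM in DMSO and 5557 to 5771 FPKM in AZD0095. Of 10 luminal markers 4 were listed (ERBB2, XBP1, KRT19 and EPCAM), summing to 199 to 211 FPKM in DMSO and 268 to 281 FPKM in AZD0095, while ESR1 and PGR were not among the genes analysed here. None of 8 markers of blood, endothelial or stromal cells was listed. Both sums were higher in every AZD0095 library, and their part in the results was not tested. VIM was the largest part of the mesenchymal sum, at means of 2522 and 2743 FPKM. VIM, CD44, AXL, MSN, ZEB1 and LGALS1 had higher means in AZD0095, and CAV1, FOSL1 and EGFR lower ones. EGFR went from 80.6 ± 7.45 to 65.9 ± 7.03 FPKM (SD, n = 3). All 4 luminal markers had higher means. XBP1, at 47.7 ± 1.23 and 84.2 ± 3.36 FPKM (SD, n = 3), also belongs to the ATF4 list described later. In bulk samples, fewer cells of a type and less RNA per cell cannot be told apart.

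DDIT4 RNA stood at 10.3, 12.1 and 13.995 FPKM in the DMSO libraries and at 57.4, 61.1 and 61.7 FPKM in the AZD0095 libraries. Every AZD0095 library was far above every DMSO library, and replicate 1 was the lowest of each group. The group means were 12.1 ± 1.86 and 60.1 ± 2.36 FPKM (SD, n = 3), a ratio of 4.96, and the gene moved from above 26.1% of all genes to above 79.3%. On the log2(FPKM + 1) scale the RNA difference was 2.23 ± 0.10 (SE), rank 1 of 6777 by size of rise.

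TRIB3 RNA was 12.4, 13.984 and 13.4 FPKM in DMSO and 32.2, 35.0 and 36.3 FPKM in AZD0095. The groups were again apart, with the 3 treated libraries close together. Means were 13.3 ± 0.79 and 34.5 ± 2.1 FPKM (SD, n = 3), a ratio of 2.60 and a log2 RNA difference of 1.31 ± 0.08 (SE). That was rank 3 of all genes: CTH, the cystathionine gamma-lyase of cysteine synthesis, lay just before it at a log2 RNA difference of 1.33, and CCNG2, a cyclin gene, just after it at 1.30. The choice of the genes set no numeric threshold.

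EIF4EBP1 (ENSG00000187840), protein-coding as well, spans 38030534 to 38060365 on chromosome 8 of the same assembly. Its RNA started from a higher level, at 66.0, 64.3 and 67.4 FPKM in DMSO against 85.2, 78.1 and 79.4 FPKM in AZD0095. Its groups did not overlap either, but the step was small. From 65.9 ± 1.54 to 80.9 ± 3.79 FPKM (SD, n = 3), the ratio of means was 1.23 and the log2 RNA difference 0.29 ± 0.05 (SE), rank 442 by rise. All 3 genes thus had higher RNA in every AZD0095 library, as 17.7% of all genes did, a share that says nothing about genes picked on RNA. Of all genes, 8.04% were called in the RNA comparison at an adjusted p under 0.05 and 5.03% were called higher (limma, Benjamini-Hochberg adjustment).

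**Figure D1:**
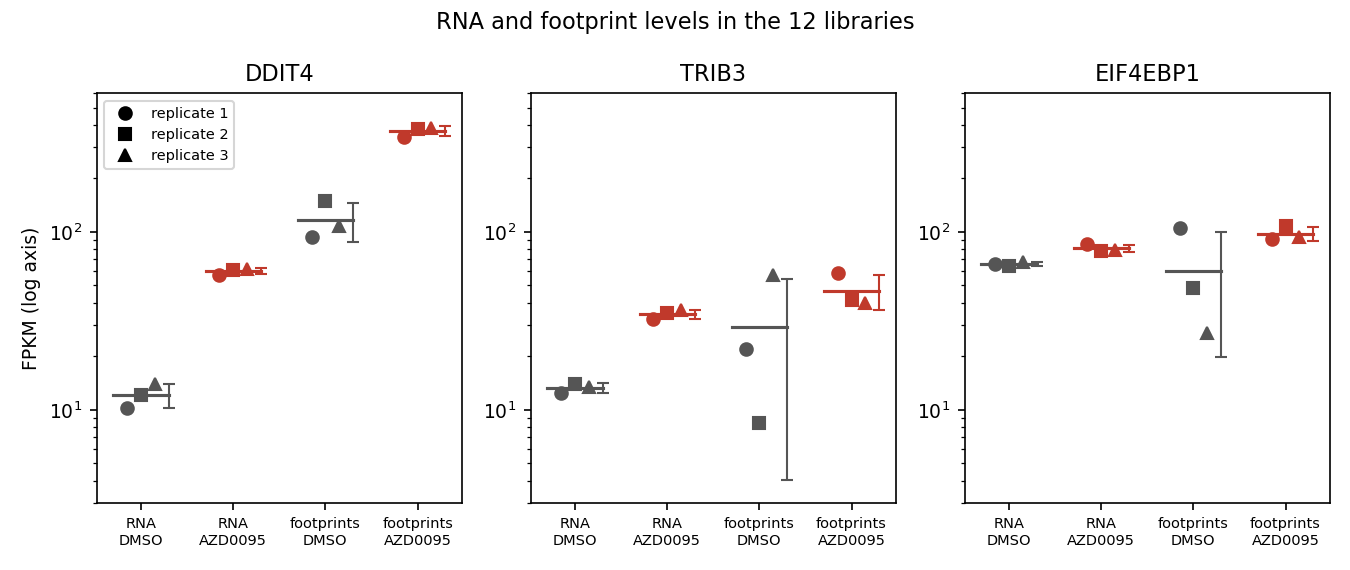
FPKM (log axis) of DDIT4, TRIB3 and EIF4EBP1 in the 12 libraries, 3 per group, grey for DMSO and red for AZD0095; symbols give the replicate number, horizontal lines the group mean and bars the SD. RNA groups are apart for each gene, while footprint groups are apart for DDIT4 only (93.3 to 150 against 343 to 385 FPKM).

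In DMSO, RNA levels per length of DDIT4 and TRIB3 overlapped between libraries, at means of 12.1 and 13.3 FPKM, and EIF4EBP1 lay above both. In AZD0095 the order of RNA levels was EIF4EBP1, DDIT4 and TRIB3, at 80.9, 60.1 and 34.5 FPKM, each gap larger than the spread of its neighbours.

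Footprints were not used to choose the genes. DDIT4 footprints were at 93.3, 150 and 107 FPKM in DMSO and at 343, 381 and 385 FPKM in AZD0095. The lowest AZD0095 library was thus above the highest DMSO library, a separation in this direction shown by 7.19% of all genes. Means were 117 ± 29.3 and 369 ± 23.5 FPKM (SD, n = 3), a ratio of 3.16, and a log2 footprint difference of 1.68 ± 0.29 (SE) with a 95% interval of 1.05 to 2.30. By limma, DDIT4 had the smallest unadjusted p of all genes, 7.4e-05, but its Benjamini-Hochberg adjusted p was 0.31 and the gene was not called. An exact two-sided permutation test gave p = 0.1, the smallest that 3 against 3 libraries allow.

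No gene was called in the footprint comparison by limma (0%), and 530 genes, 7.82%, had an unadjusted p under 0.05. In simulated footprint data with this spread, limma called 4% of genes changed by 1 log2 unit and 38% of those changed by 2, against 94% and 100% in simulated RNA data. The simulation took the estimated spread of each gene as its true spread, so these shares are only a rough guide to the real comparison. By size of footprint rise DDIT4 ranked 53 of 6777. Leaving out any library, or the other alternatives tried, moved the DDIT4 footprint difference between 1.53 and 1.87, with unadjusted p-values from 4.1e-05 to 9.8e-04 and adjusted ones from 0.23 to 0.8.

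TRIB3 footprints varied widely among the controls, at 21.9, 8.44 and 57.2 FPKM in DMSO and 58.6, 41.6 and 39.7 FPKM in AZD0095. DMSO replicate 3 lay within the AZD0095 values, so the groups overlapped. The log2 footprint difference was 1.01 ± 0.65 (SE), with a 95% interval of -0.40 to 2.43, an unadjusted limma p of 0.15 and an adjusted p of 0.75; the exact permutation p was 0.3. Without DMSO replicate 2 the difference was 0.36, and without DMSO replicate 3 it was 1.67 with an unadjusted p of 0.021. An interval this wide holds both no change and a change as large as that of its RNA.

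EIF4EBP1 footprints were 105, 48.4 and 26.9 FPKM in DMSO and 91.8, 107 and 93.0 FPKM in AZD0095. DMSO replicate 1 was as high as the treated libraries and the other two were lower. The log2 footprint difference was 0.90 ± 0.49 (SE), with a 95% interval of -0.17 to 1.97, a limma p of 0.092, adjusted to 0.7, and an exact permutation p of 0.3. It was 0.44 without DMSO replicate 3 and 1.40, with an unadjusted p of 0.011, without DMSO replicate 1. By size of footprint rise TRIB3 ranked 371 and EIF4EBP1 497.

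The footprint values of TRIB3 and EIF4EBP1, and those of DDIT4 in DMSO, rest on few reads. For EIF4EBP1 the steps gave whole numbers, within 0.01 of a read in every library, of 5, 2 and 2 reads in DMSO and 5, 9 and 18 in AZD0095. These are the smallest whole reads that fit, since a multiple of all of them would fit as well. The exact Poisson 95% interval of a value of 2 reads ran from 0.242 to 7.22 and that of 18 reads from 10.7 to 28.4, which cover counting error only. No whole reads within 0.01 were found for DDIT4 or TRIB3, so theirs are given per kilobase. DDIT4 held an inferred 11.6 to 20.7 reads per kilobase in DMSO and 48.3 to 193 in AZD0095, and TRIB3 0.904 to 11.0 and 8.28 to 19.9. With log2 depth as a covariate, a fit added after seeing the data, the log2 footprint differences were 1.68 for DDIT4, 0.75 for TRIB3 and 1.14 for EIF4EBP1.

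**Figure D2:**
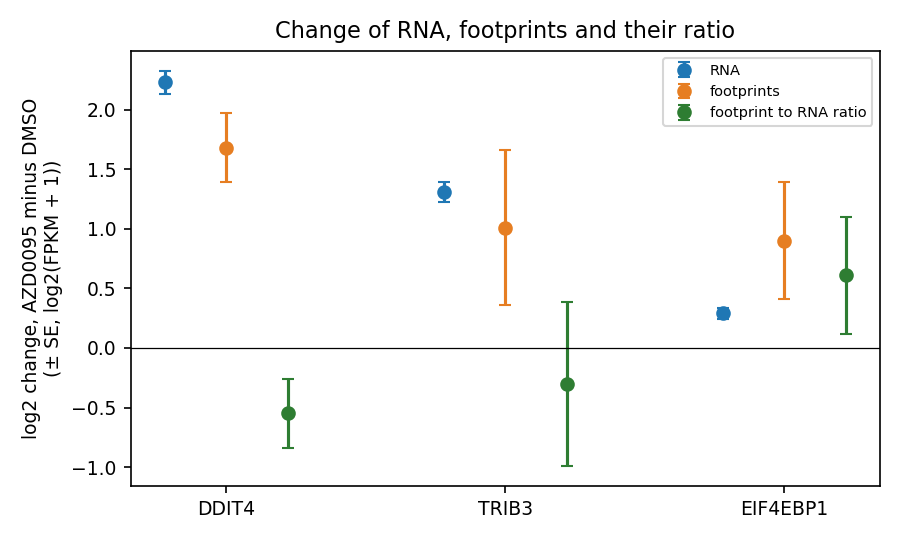
Log2 difference between AZD0095 and DMSO of RNA, footprints and the footprint to RNA ratio of each gene, on the log2(FPKM + 1) scale; points are estimates from 3 libraries per group and assay, bars the SE. The DDIT4 values are 2.23, 1.68 and -0.55, and the footprint and ratio bars of TRIB3 and EIF4EBP1 are several times wider than those of their RNA.

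Dividing footprint by RNA FPKM gives the ribosome load per transcript, often called translational efficiency. Same-numbered libraries were divided, although the labels do not say that they share a culture. The 2 assays may use different gene lengths, which would shift the ratio of each gene by its own factor. Such a shift largely cancels when the same gene is compared between treatments, but not between genes. Ranks among genes and multiples of the median gene are therefore approximate. DDIT4 had a ratio of 9.08, 12.4 and 7.68 in DMSO and 5.97, 6.23 and 6.24 in AZD0095. All treated values were below all control values, as for 5.53% of all genes, which is a description since the ratio holds the RNA that chose the gene. It was above 95.6% of genes in DMSO, at 3.97 times the median gene, and above 90.0% in AZD0095, at 2.51 times the median gene. The log2 difference of the ratio was -0.55 ± 0.29 (SE), with a 95% interval of -1.17 to 0.07; it was -0.36 without footprint DMSO replicate 2 and -0.70 without replicate 1.

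TRIB3 ratios were 1.76, 0.604 and 4.26 in DMSO and 1.82, 1.19 and 1.09 in AZD0095. They overlapped, and the gene was above 44.7% and then 20.0% of all genes. The log2 difference of the TRIB3 ratio was -0.30 ± 0.69 (SE), 95% interval -1.79 to 1.19, and was 0.36 without footprint DMSO replicate 3 and -0.95 without replicate 2. EIF4EBP1 ratios were low, at 1.58, 0.752 and 0.40 in DMSO and 1.08, 1.37 and 1.17 in AZD0095. The gene was above 10.4% of genes in DMSO and 16.1% in AZD0095, at 0.375 and 0.491 times the median gene. Its log2 ratio difference was 0.61 ± 0.49 (SE), 95% interval -0.45 to 1.67, and was 0.15 without footprint DMSO replicate 3 and 1.11 without replicate 1. Since the ratio contains the RNA that chose the genes, it was not tested for them. The 95% intervals of the ratio differences of the 3 genes take no account of that choice and are descriptions only. Across all genes limma called none (0%) in the ratio, with 578 genes, 8.53%, at an unadjusted p under 0.05.

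**Figure D3:**
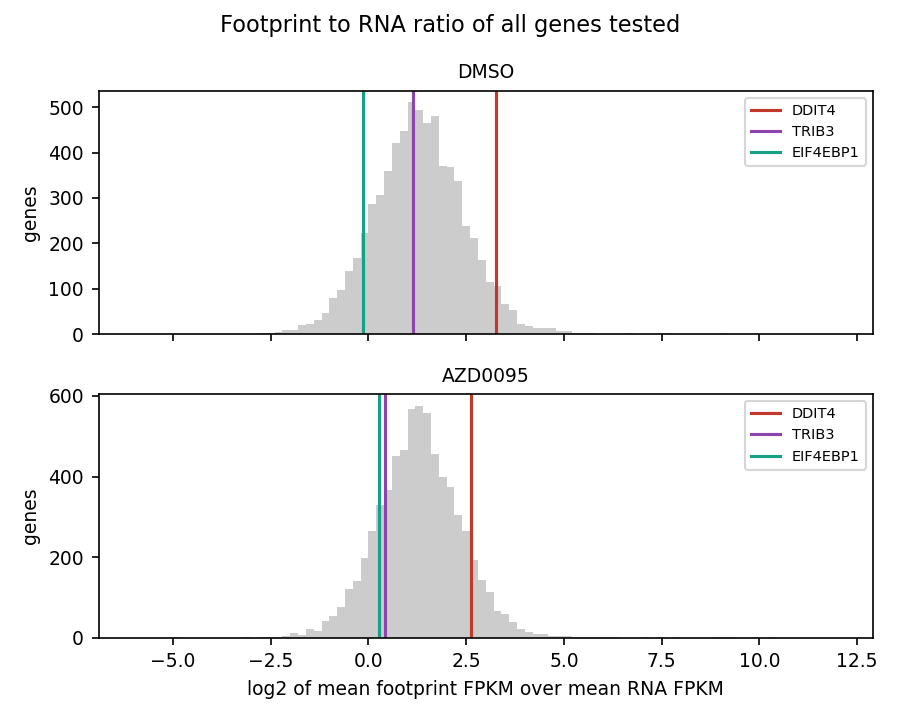
Number of genes (vertical axis) by log2 of mean footprint FPKM over mean RNA FPKM (horizontal axis) for all 6777 genes in DMSO (top) and AZD0095 (bottom), with lines at DDIT4, TRIB3 and EIF4EBP1. DDIT4 lies in the right tail, above 95.6% and 90.0% of genes, and EIF4EBP1 on the left, above 10.4% and 16.1%. Gene lengths that differ between the assays could shift the place of each gene.

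Across the 6 RNA libraries the log2(FPKM + 1) values of DDIT4 and TRIB3 had a Pearson r of 0.9956, those of DDIT4 and EIF4EBP1 0.9523 and those of TRIB3 and EIF4EBP1 0.9339. The points share the treatment step between 2 groups, which sets most of r. The 5 genes most like DDIT4 were VAT1, VLDLR, CEBPB, AARS1 and JUNB, with r from 0.997 to 0.9997 over the 6 libraries. Genes most like TRIB3 included SRA1, CEBPB, G0S2 and CD83, with r from 0.9972 to 0.9985. PFDN6, SOX12, HIBADH, FKBP4 and FHOD1 were most like EIF4EBP1, with r from 0.9898 to 0.9956. Likeness in pattern did not mean likeness in size. The mean RNA level of VAT1 was 70.6 ± 1.08 FPKM without and 87.2 ± 0.465 FPKM with AZD0095 (SD of 3 libraries each), giving a log2 difference of 0.30 against 2.23 for DDIT4. CEBPB, a C/EBP transcription factor shared by the DDIT4 and TRIB3 lists, went from 9.29 ± 0.304 to 18.0 ± 0.469 FPKM. An r over 0.95 was reached by 239 genes with DDIT4, 234 with TRIB3 and 130 with EIF4EBP1.

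Of 32 gene symbols for other restraints on the mTORC1 pathway or on translation downstream of it, 16 were listed. In RNA 1 of the 16 rose, none fell and 15 were not called. Of all genes, 5.03% were called higher and 8.04% in either direction. The median log2 RNA difference was 0.05 against 0.01 for all genes. The one that rose was PRKAA2, a catalytic subunit of the energy sensor AMPK, at 1.99 ± 0.135 and 3.02 ± 0.33 FPKM (SD, n = 3), with a log2 difference of 0.42 and an adjusted limma p of 0.033. That call was lost on leaving out 5 of the 6 RNA libraries in turn, with adjusted p up to 0.1. A minimum mean of 5 FPKM removed PRKAA2, and 0 of the 13 genes left were then called. With the replicate number as a block, 3 of the 16 were called higher and 1 lower, when 1622 of all 6777 genes were called. TSC1, through whose complex DDIT4 acts, had a log2 RNA difference of 0.33 (adjusted limma p 0.069), and its partner TSC2 one of -0.13. The mTORC1 inhibitor AKT1S1 stood at -0.16, and TRIB2, the one listed relative of TRIB3, at -0.21. DDIT4L, TRIB1, EIF4EBP2, EIF4EBP3, SESN2 and DEPTOR were not among the genes analysed here.

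Among 35 genes of the kinase complex and its activators, 18 were listed, of which 1 fell and 17 were not called in RNA, against 3.01% of all genes called lower, with a median log2 difference of 0.01. With median centring of the libraries 1 gene of the list was called higher and none lower, and with quantile normalization none was called. With the replicate number as a block 1 was called higher and 2 lower. MLST8, a subunit of the complex, fell from 30.5 ± 0.805 to 24.9 ± 1.58 FPKM (SD, n = 3), a log2 difference of -0.29 with an adjusted limma p of 0.041. The MLST8 call was lost under both of these scalings and without 5 of the 6 libraries, with adjusted p up to 0.17 without 1 library. The kinase gene MTOR had a log2 RNA difference of 0.06, its partner RPTOR -0.18, the activating GTPase RHEB 0.02 and AKT1 0.07. Of 20 genes acting downstream of mTORC1, 14 were listed and none was called in RNA (limma), with a median of -0.03. With the replicate number as a block 1 of the 14 was called higher and 2 lower. RPS6KB1, which encodes the S6 kinase, stood at -0.07, its substrate RPS6 at -0.04 and EIF4E, the partner of 4E-BP1, at -0.12. In footprints none of the genes of these 3 lists was called, and the median over all genes was 0.04. The list medians were 0.21 for the other restraining genes (0.04 to 0.55 over the alternatives), 0.09 for the complex and activators (0.04 to 0.23) and -0.12 for the downstream genes (-0.22 to 0.12). At an unadjusted limma p under 0.05, 1 of the other restraining genes was higher in footprints and 1 lower. These were PDCD4, with a log2 footprint difference of 1.74 ± 0.52 (SE), and TSC2, with one of -1.34 ± 0.56 (SE).

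ATF4, the transcription factor of the integrated stress response and a known activator of all 3 genes, rose in RNA from 199 ± 8.39 to 256 ± 6.34 FPKM (SD, n = 3), a log2 difference of 0.36 ± 0.05 (SE) with an adjusted limma p of 0.0063. ATF4 is regulated largely at translation, and its log2 footprint difference was 0.29 ± 0.37 (SE), which was not called. A list of 42 genes for ATF4 and its programme, which does not hold the 3 genes, had 31 listed. In RNA 20 of the 31 rose, none fell and 11 were not called, against 5.03% of all genes called higher, with a median log2 difference of 0.36 against 0.01. The list was put together with results of these libraries known and is not independent evidence of its direction. The count was 10 without RNA DMSO replicate 2 or without RNA AZD0095 replicate 2, 14 without DMSO replicate 1 or 3, 13 without AZD0095 replicate 3 and at most 22 over all alternatives.

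The 6 with the smallest p were CTH at a log2 RNA difference of 1.33, VLDLR, a lipoprotein receptor, at 1.25, CEBPB at 0.89, the glutamine transporter SLC38A2 at 0.84, XBP1, a transcription factor of the unfolded protein response, at 0.81 and PSPH, the last enzyme of serine synthesis, at 0.78. These are smaller than the 2.23 of DDIT4, and 2 of them lie near the 1.31 of TRIB3. CTH RNA went from 12.2 ± 0.812 to 32.3 ± 1.44 FPKM (SD, n = 3), close to the RNA levels of TRIB3 in both groups. For SLC38A2 the means were 115 ± 8.64 and 206 ± 6.7 FPKM. In footprints 0 of the 31 were called by limma, 5 were higher at an unadjusted p under 0.05, against 4.1% of all genes. The median was 0.26 against 0.04 for all genes, and 0.43 without footprint DMSO replicate 1 or AZD0095 replicate 1, with a range of 0.18 to 0.43 over the alternatives. DDIT3 and ASNS, other classical members of the programme, were not among the genes analysed here.

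mRNAs with a terminal oligopyrimidine (TOP) start, which encode ribosomal proteins and translation factors, are the class whose translation depends most on mTORC1. All 45 genes of a TOP list were present. None was called in RNA, footprints or the ratio by limma, and the median log2 RNA difference was 0.01. With the replicate number as a block 2 of the 45 were called higher in RNA and 3 lower. The median log2 footprint difference of the TOP genes was -0.20 against 0.04 for all genes, with 38 of 45 below 0, against 46.9% of all genes. At an unadjusted p under 0.05, 9 were lower and 1 higher, against 3.72% and 4.1% of all genes. With quantile normalization of the footprint libraries the median was -0.03 and 25 of 45 were below 0, and over all alternatives it ranged from -0.28 to -0.03. The footprint FPKM of all genes summed to 1283263 to 1332274 in DMSO libraries and to a lower 1188235 to 1281444 in AZD0095 libraries. The library medians overlapped, at 52.1 to 56.1 and 53.9 to 58.1 FPKM. Whether other genes as abundant as the TOP genes shifted alike was not tested. Summed, the TOP genes made up 8.19, 7.91 and 8.97% of the footprint FPKM in DMSO and 6.94, 7.74 and 7.74% in AZD0095. The lowest DMSO share was above the highest AZD0095 share by less than the range within either group. The lists shared the footprint libraries with the 3 genes, and their differences were not tested against those of the 3 genes.

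**Figure D4:**
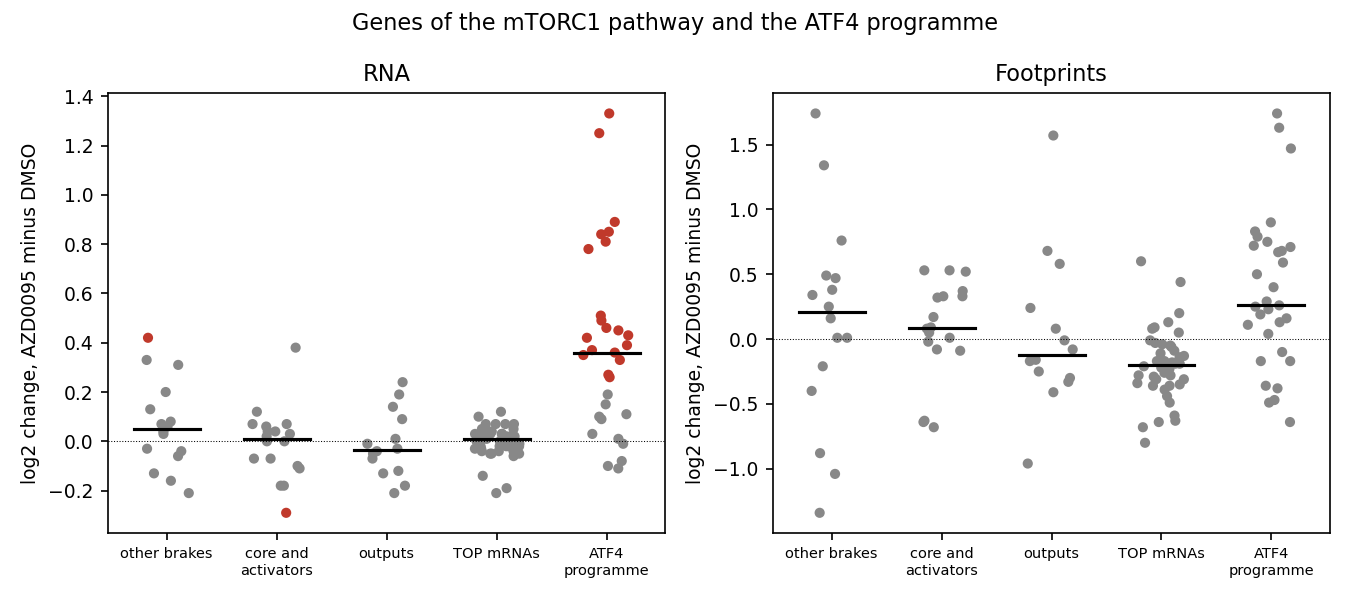
Log2 difference between AZD0095 and DMSO of RNA (left) and footprints (right) for the listed genes of 5 lists, on the log2(FPKM + 1) scale; each point is a gene, red where called at an adjusted limma p under 0.05, and bars are medians. In RNA 20 of 31 genes of the ATF4 programme are red, and in footprints no point is red, the TOP median being -0.20.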

How the data were processed

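The authors deposited FPKM values for each library, 6785 genes per table, keyed by Ensembl ID and symbol per the file headers. The tools fastp, Bowtie2 and STAR and the build hg38 are named per the submitters' processing notes; what each did, its version, how reads were counted and which gene lengths entered FPKM is not given in the sources used here. The lowest value was 1.002, so genes at or below 1 FPKM in any library, RNA or footprint, appear to be missing. Whether other filters were applied is not known here, so a missing gene cannot be read as having low RNA. After removal of 8 repeated entries, 6777 genes were tested on log2(FPKM + 1), a scale that understates changes of low genes, with limma 3.58.1 in R 4.3.3 (moderated, trended variance, two-sided, Benjamini-Hochberg over all genes, called at adjusted p under 0.05). A minimum mean of 1 FPKM removed 0 genes. RNA and footprints were fitted separately, and the ratio as the interaction of assay and treatment. Intervals of differences are 95% limits from the moderated fit.

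The 3 genes and all lists were chosen with earlier results of these data known. Named are the 3 genes, relatives and pathway genes set by name, up to 6 called genes with the smallest p per list, and the 5 genes most alike in RNA, of which 1 is not reported here. CCNG2, PDCD4 and the genes used as cell markers fall outside that rule. CCNG2 was added after its value was seen, as the neighbour of TRIB3 in rank, and PDCD4 after its footprint p was seen. Inferred footprint reads come from whole-number steps in FPKM, and 1059 genes gave whole reads in all 6 libraries. The depth and limma procedures were tested on simulated data. Depth was found for 6 of 6 simulated libraries, in which every value was built from whole reads. That tests the procedure and cannot show that the deposited values were built in the same way. Alternatives were a pseudocount of 0.1, a minimum of 5 FPKM or none, median centring, quantile normalization, variance without trend, the replicate number as a block, replicate 1 as a batch, and leaving out each library. RefSeq tables gave positions and promoter windows.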

Additional observations from a re-analysis of the deposited data

How the results depend on the processing

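The RNA differences of the 3 genes ranged over 14 alternatives from 2.13 to 2.33 for DDIT4, 1.27 to 1.37 for TRIB3 and 0.25 to 0.32 for EIF4EBP1. The ratio difference of TRIB3 changed sign, and footprint genes called stayed at 0 in each alternative. RNA genes called were 545, against 1622 with the replicate block and 1660 with replicate 1 as a batch, and 100 to 1112 on leaving out each library; the cause was not tested. Ratio genes called were 0, against 1 with variance without trend and 0 to 4 on leaving out each library. Deviations of same-numbered libraries correlated at 0.62, 0.09 and 0.49 in RNA and at 0.01, -0.02 and 0.09 in footprints. In RNA, replicates 1 and 3 matched best with their own number, and in footprints only replicate 3 did. What same-numbered libraries share is not stated, and the main fits took no account of the number. With the replicate block the SE of the DDIT4 RNA difference was 0.07, against 0.10 in the main fit. Footprint depth, down to an inferred 2 reads at the smallest fit for EIF4EBP1, and the lack of a known RNA depth limit what the footprint comparison can show.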
